A study of Mus musculus with 64 samples.

Results

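Brown adipose tissue (BAT) of mice that lack *Nampt* in adipocytes was compared with that of wild-type (WT) littermates at ZT22, late in the dark phase and shortly before lights on. The comparison used the 4 FANKO and the 4 WT BAT samples that carry the ZT22 label, 8 of the 64 samples of the study, with all 18127 genes that passed a filter on low counts out of the 52636 in the count table. The other samples are BAT at ZT6, ZT10 and ZT18 and epididymal white adipose tissue at the same times, with 4 samples per group. FANKO mice come from a cross of the *Nampt* tm1Jtree line, in which loxP sites flank exon 3, with a line that expresses Cre from the Adiponectin promoter, so that cells of the depot that do not use that promoter keep the gene. The WT group comes from the same cross. All mice were male, 2 to 4 mo old, on chow at room temperature, and other mice were killed at each time point, so no animal was measured at both ZT22 and another time. Total RNA was depleted of ribosomal RNA, sequenced and counted per gene, and levels are given in CPM, the share of a library's counts on the usual CPM scale, after TMM scaling of the libraries.

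NAMPT is the rate-limiting enzyme of the salvage route that remakes NAD from nicotinamide, and NAD is both an electron carrier of mitochondrial oxidation and the substrate of sirtuins and PARP enzymes. Cells answer protein damage, amino acid shortage, oxidants, DNA damage, viral nucleic acids and low oxygen with separate transcription programs, among them the HSF1, ATF4, unfolded protein, NRF2, p53, interferon and hypoxia responses. BAT burns fat for heat through the uncoupling protein UCP1, and many of its genes, including several chaperones, follow the circadian clock and the body temperature cycle. Such programs were followed as 10 lists, which hold 351 tested genes when each gene is counted once, and the question was which of these genes differed between genotypes at ZT22 and whether that difference was another one than at ZT6, ZT10 and ZT18.

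The 8 ZT22 libraries held 8299625 to 22842220 counts in WT and 12819379 to 19896132 in FANKO. Genes of the mitochondrial genome took 18.4% to 40.7% of the counts in WT, with replicate 3 the highest, and 11.4% to 24.7% in FANKO, and the TMM factors of the genotypes did not overlap, at 0.650 to 0.937 in WT and 1.12 to 1.27 in FANKO. Samples of 1 genotype correlated across genes at 0.976 to 0.986 and samples of different genotypes at 0.857 to 0.899. Scaling by library size alone moved the median log2 difference of all genes by 0.556, and changes below are relative to TMM scaling unless the text says otherwise.

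Summed marker genes of several cell types differed between the genotypes, as the plot of summed marker levels shows. The 10 brown adipocyte markers were all detected, as the tissue label requires, and their summed level was 6312 to 7530 CPM in WT and 2088 to 3119 CPM in FANKO. Taken singly, 7 of the 10 were lower at an edgeR FDR below 0.01. *Zic1* (FDR = 0.475), *Elovl3* (0.864) and *Kcnk3* (0.116) did not pass. Macrophage markers summed to 128 to 195 CPM in WT and 1042 to 1610 CPM in FANKO. Of the 13 macrophage markers 11 were higher, *Cd163* was lower (log2 −1.43, edgeR FDR = 0.000253) and *Cd14* did not pass (log2 −0.32, FDR = 0.196). T and NK cell markers summed to 2.19 to 4.78 CPM in WT and 88.0 to 162 CPM in FANKO. B cell markers summed to 5.53 to 9.19 CPM in WT and 251 to 1324 CPM in FANKO, with FANKO replicate 3 the highest. None of these ranges overlapped, and each of the 4 sums differed in an exact two-sided permutation test over the samples (p = 0.0286, the smallest that 4 against 4 samples can give, and 0.0312 after adjustment over the 12 marker lists). Among the neutrophil markers *Ly6g* and *Retnlg* had no count in any WT sample, and only 2 of 7 could be tested. Of these 2, *Csf3r* was higher in FANKO (log2 3.88, edgeR FDR = 1.98e-11) and *S100a8* did not pass (log2 0.80, FDR = 0.151). The neutrophil sum of FANKO, 12.87 to 16.02 CPM, was mostly *Csf3r*, at 12.15 to 15.35 CPM. The endothelial sum was 602 to 697 CPM in WT and 471 to 562 CPM in FANKO, but on the library size scale FANKO was the higher (ratio 1.15, exact permutation p = 0.143). Skeletal muscle markers set 1 library apart, at 430.5 CPM in FANKO replicate 2 against 19.9 to 21.4 CPM in the other FANKO samples and 66.0 to 82.2 CPM in WT. *Myl1* alone gave 63.7 to 68.5 CPM of the WT sums and 11.3 to 25.0 CPM of the FANKO sums. High muscle sums also occurred at the times that ZT22 is compared with. The highest sample at ZT6, ZT10 and ZT18 was at 329, 524 and 575 CPM in WT and at 234, 27.6 and 479 CPM in FANKO. In bulk tissue, fewer cells of a type and less RNA per cell cannot be told apart.

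**Figure D1:**
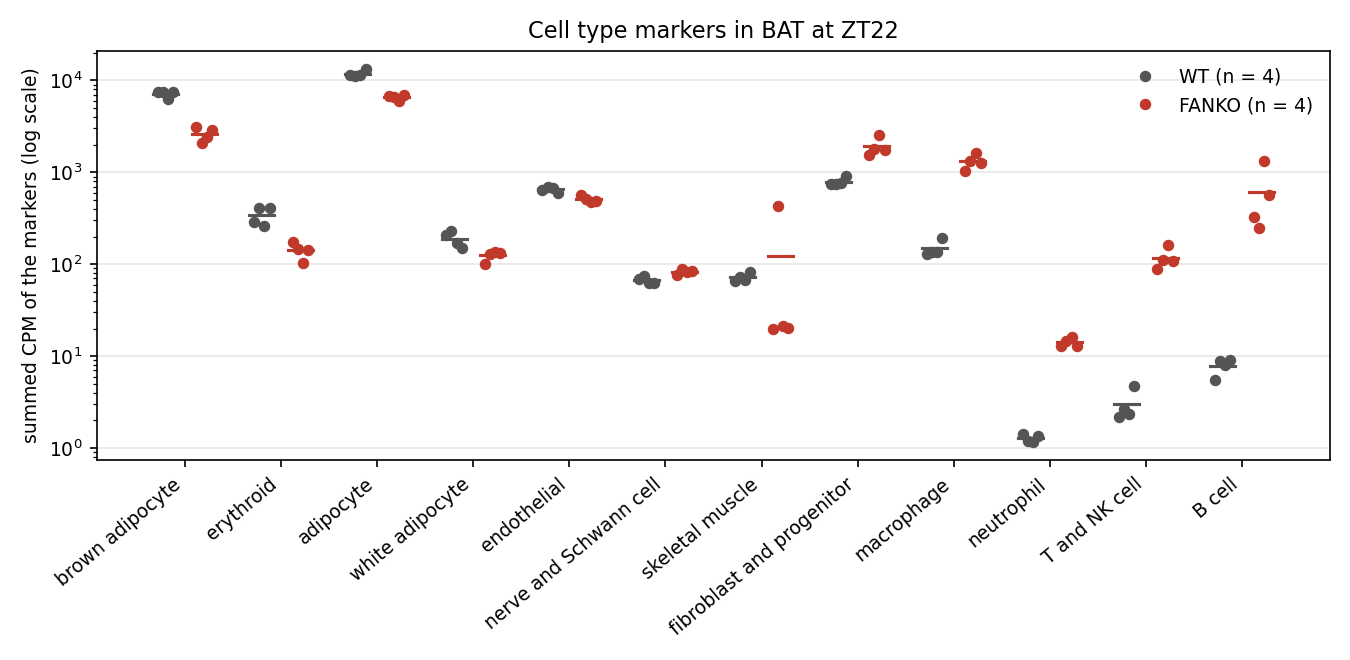
Summed CPM of the markers of 12 cell types in each BAT sample at ZT22 (log scale), with WT in gray and FANKO in red. Dots are samples and bars are means. The macrophage, neutrophil, T and NK cell and B cell sums of FANKO lie above those of WT, the brown adipocyte sums lie below, and FANKO replicate 2 alone has a muscle sum of 430.5 CPM.

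*Nampt* itself was lower in every FANKO sample. Its level was 578, 628, 546 and 692 CPM in the WT samples and 120, 133, 106 and 120 CPM in the FANKO samples. The groups were far apart, with a log2 fold change of −2.35 ± 0.16 (SE; edgeR quasi-likelihood FDR = 1.79e-13) and 5.11-fold between the means. The counts cover the whole gene, also the exons that the deletion leaves in place, and the cells without Cre.

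Across all genes, 8625 differed between FANKO and WT at ZT22 at an FDR below 0.01, which is 47.6% of those tested. Of these, 4529 were higher in FANKO (25.0% of the genes tested) and 4096 were lower (22.6%). Scaling by library size alone gave 8365 higher and 1203 lower, so that 87.4% of its calls were higher in place of 52.5%. The 4 samples of each genotype did not overlap for 9499 genes (52.4%). The list counts below are to be read against these shares.

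Of the 25 tested genes of NAD metabolism, *Nampt* included, 12 were lower and 4 higher at ZT22 (median log2 difference −0.43, beside 0.02 for all genes). *Naprt*, which makes NAD from nicotinic acid, was at 24.3 to 32.7 CPM in WT and 7.44 to 9.25 CPM in FANKO (log2 −1.75 ± 0.13, FDR = 3.44e-12), although it overlaps *Eef1d* on the same strand. *Nadk2*, the mitochondrial NAD kinase, fell by 1.34 on the log2 scale, and *Sirt3*, the main mitochondrial sirtuin, by 1.45, with both groups apart in every sample. *Sirt3* overlaps *Psmd13* and *Ric8a* on the opposite strand, and whether counting used strand is not given in the sources used here. *Bst1*, which encodes an NAD-consuming surface enzyme of leukocytes and stromal cells, went the other way, from 0.257 to 0.473 CPM in WT to 3.64 to 5.63 CPM in FANKO (log2 3.53 ± 0.32, FDR = 1.04e-10). It overlaps *Fbxl5* on the opposite strand.

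The interferon-stimulated genes made up the stress list that moved as one. All 36 genes on it were tested and all 36 were higher in FANKO at ZT22, with no overlap between the genotypes, and the median log2 difference was 4.97. These genes are switched on after interferon binds its receptor, and many encode proteins that sense or cut viral RNA. *Isg15*, a ubiquitin-like protein joined to other proteins, was at 1.16, 1.34, 0.589 and 1.05 CPM in WT and 86.6, 99.1, 72.7 and 95.5 CPM in FANKO (log2 6.34 ± 0.37, FDR = 1.08e-14). *Ifit3*, an RNA-binding antiviral protein, was at 3.09 to 4.51 CPM in WT and 384 to 969 CPM in FANKO, with FANKO replicate 3 the lowest. *Oas3*, which makes the second messenger that activates RNase L, had 7 counts in all WT samples together and 114, 140, 87.7 and 147 CPM in FANKO (log2 9.63 ± 0.38). *Irf7*, the factor that amplifies interferon production, reached 351 to 584 CPM in FANKO from 2.97 to 4.57 CPM in WT, and it overlaps *Phrf1* on the opposite strand. The smallest difference of the list was that of *Ifi27l2a*, at 47.1 to 86.1 CPM in WT and 137 to 246 CPM in FANKO (log2 1.51 ± 0.44, FDR = 0.00407), whose call was lost without WT replicate 2 (FDR = 0.0176), WT replicate 3 (FDR = 0.0161) or FANKO replicate 4 (FDR = 0.0157). Members of the *Ifit*, *Oas*, *Mx* and *Gbp* families have close copies, so reads between them may have been shared. The summed macrophage, T and NK cell and B cell markers were higher in the same samples (above), and their part in these levels was not tested.

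Letters of the interferon-stimulated response element were searched in the DNA before each gene. The letters GAAA, any 2 bases and GAAA, on either strand and with overlaps allowed, occurred within 250 bases before the start in 14 of the 24 list genes that have a RefSeq sequence (58.3%) and in 3.46% of all 27025 genes. For the ATF4 list below, TGATGNAA was found in 12 of 42 (28.6%) against 3.91% of all genes, and for the heat shock list GAANNTTC in 11 of 37 (29.7%) against 7.73%. The E-box CACGTG, which CLOCK and BMAL1 bind, was found in 5 of 17 clock genes (29.4%) against 6.86%. A match describes letters and is not a bound site. The 200 bases before the RefSeq start (GRCm38.p6), written 5′ to 3′ on the gene's strand, are shown for *Isg15* (chr4:156200819-156201018, minus strand), *Ifit3* (chr19:34583329-34583528, plus strand) and *Oas3* (chr5:120777660-120777859, minus strand) as members of the interferon list, for *Slc7a11* (chr3:50443614-50443813, minus strand), the ATF4 and NRF2 list gene with the largest rise, and for *Cry1* (chr10:85185055-85185254, minus strand). The genotype effect of *Cry1* at ZT22 was called different from the mean of the other times, but not from ZT18 alone (below). Capitals mark the matches.
Isg15: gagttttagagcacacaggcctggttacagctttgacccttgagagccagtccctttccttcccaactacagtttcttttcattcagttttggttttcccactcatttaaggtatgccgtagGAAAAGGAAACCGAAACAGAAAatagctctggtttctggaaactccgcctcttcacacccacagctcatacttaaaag
Ifit3: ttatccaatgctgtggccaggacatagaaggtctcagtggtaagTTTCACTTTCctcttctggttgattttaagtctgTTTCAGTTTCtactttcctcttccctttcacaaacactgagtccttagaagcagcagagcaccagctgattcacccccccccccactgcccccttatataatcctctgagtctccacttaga
Oas3: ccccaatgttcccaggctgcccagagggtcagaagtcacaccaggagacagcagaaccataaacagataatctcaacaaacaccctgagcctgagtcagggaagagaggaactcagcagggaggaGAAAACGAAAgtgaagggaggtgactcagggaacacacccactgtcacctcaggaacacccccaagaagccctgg
Slc7a11: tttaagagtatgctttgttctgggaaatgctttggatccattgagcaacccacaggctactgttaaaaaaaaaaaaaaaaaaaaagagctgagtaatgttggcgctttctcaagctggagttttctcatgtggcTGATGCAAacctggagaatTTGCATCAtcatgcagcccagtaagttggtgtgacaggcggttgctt
Cry1: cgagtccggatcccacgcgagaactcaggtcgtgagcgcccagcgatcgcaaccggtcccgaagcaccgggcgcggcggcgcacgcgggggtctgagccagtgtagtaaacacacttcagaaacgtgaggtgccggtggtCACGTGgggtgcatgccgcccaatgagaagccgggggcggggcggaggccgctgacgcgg
The matches of *Isg15* overlap each other and end 56 bases before the start, that of *Oas3* ends 65 bases before it, and the *Slc7a11* window holds the ATF4 motif on both strands.

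The ATF4 list, the integrated stress response to amino acid shortage and to stalled translation, was split between rising and falling members. Of its 51 tested genes 22 were higher and 8 were lower in FANKO at ZT22 (median log2 difference 0.45). *Slc7a11*, the cystine importer, was at 0.129, 0.0707, 0 and 0.158 CPM in WT, 5 counts in all, and at 18.4, 16.2, 10.5 and 16.8 CPM in FANKO (log2 7.12 ± 0.66, FDR = 1.41e-10). *Gdf15*, a secreted hormone of stressed tissue, rested on 4 WT counts and reached 11.0, 5.76, 2.25 and 8.74 CPM in FANKO (log2 6.27 ± 0.78, FDR = 4.75e-08). *Atf3*, a transcription factor induced through ATF4, was at 0.884 to 2.83 CPM in WT and 25.4 to 30.0 CPM in FANKO. The one-carbon enzymes *Mthfd1l* (log2 4.07 ± 0.30) and *Mthfd2*, the serine enzymes *Psat1* and *Phgdh* and the amino acid carriers *Slc7a5* and *Slc7a1* also rose. *Asns*, the asparagine synthetase that is a classic ATF4 target, fell, from 75.0 to 97.0 CPM in WT to 25.1 to 37.7 CPM in FANKO (log2 −1.42 ± 0.14, FDR = 5.83e-10). *Atf4* mRNA itself did not pass the test, at 56.9 to 135 CPM in WT and 61.8 to 114 CPM in FANKO, and *Fgf21* was at 0.367 to 3.60 CPM in WT and 2.55 to 6.66 CPM in FANKO (log2 1.27 ± 0.42, FDR = 0.0109), with overlapping samples. The *Fgf21* difference passed with RLE factors (FDR = 0.0095), library size scaling (0.000673), no filter (0.00429) and limma-voom (0.0012) and ranged from 0.84 (without WT replicate 4) to 1.66 (without WT replicate 1) on the log2 scale when 1 sample was left out.

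In the endoplasmic reticulum, 17 of the 37 genes of the unfolded protein response were higher and 3 lower (median log2 difference 0.29). *Hsp90b1*, the luminal HSP90, was at 165 to 177 CPM in WT and 245 to 357 CPM in FANKO, with FANKO replicate 3 apart from the rest (log2 0.70 ± 0.11, FDR = 5.64e-06). The chaperone *Hspa5* (BiP) did not pass, at 256 to 343 CPM in WT and 346 to 401 CPM in FANKO (log2 0.29, FDR = 0.028), although the samples did not overlap. It passed with DESeq2 (log2 0.32, FDR = 0.00883) and with library size scaling (log2 0.83, FDR = 8.97e-05). *Sdf2l1*, *Derl3* and *Ern1* rose by more than *Hsp90b1*, by 2.21, 1.40 and 0.91 on the log2 scale, although the *Derl3* call was lost without WT replicate 1 (FDR = 0.0102), 2 (0.0125) or 3 (0.0102) or FANKO replicate 3 (0.0232) and with limma-voom (0.0129).

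The protein quality control genes of mitochondria moved in the other direction. Of 22 tested genes on the list, 18 were lower and 1 was higher, with a median log2 difference of −0.98. The higher gene, *Hsph1*, is also on the heat shock list and encodes a cytosolic chaperone, not a mitochondrial one. Its call was lost in most fits that left out 1 sample (below). *Hspd1*, the HSP60 chaperonin, was at 424, 488, 505 and 518 CPM in WT and at 199, 187, 180 and 165 CPM in FANKO (log2 −1.41 ± 0.11, FDR = 1.13e-11). *Hspa9*, the mitochondrial HSP70, was at 1404 to 1608 CPM in WT and 703 to 857 CPM in FANKO (log2 −0.98 ± 0.14). The protease *Lonp1* did not pass, at 190 to 236 CPM and 166 to 181 CPM. The library size scale left 11 of the 22 lower and 2 higher. Brown adipocyte markers, which come from cells rich in mitochondria, were lower in the same FANKO samples (above), and their part was not tested.

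The NRF2 and antioxidant list held rising and falling members, 10 and 15 of 43. *Hmox1*, heme oxygenase, was at 5.09 to 7.59 CPM in WT and 58.3 to 89.6 CPM in FANKO (log2 3.56 ± 0.37, FDR = 1.71e-09), and *Nqo1*, a quinone reductase and standard NRF2 target, at 0.636 to 1.77 CPM and 5.46 to 8.93 CPM. *Gpx3*, the secreted glutathione peroxidase, fell from 380 to 587 CPM in WT to 36.2 to 54.7 CPM in FANKO (log2 −3.28 ± 0.33, FDR = 8.01e-10). *Cat*, the catalase of peroxisomes, fell by 1.01 and *Sod2*, the superoxide dismutase of mitochondria, by 1.24 on the log2 scale. *Nfe2l2*, which encodes NRF2, had a log2 difference of −0.01, but of 0.53 with library size scaling (FDR = 0.00569). Macrophages, whose summed markers were higher in FANKO, also use *Hmox1*, and their part was not tested.

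Of the p53 and DNA damage list, 15 of 33 genes were higher and 5 lower (median log2 difference 0.51). *Trp53* was at 6.20 to 8.40 CPM in WT and 14.7 to 16.5 CPM in FANKO (log2 1.04 ± 0.17), and *Gadd45b*, a stress sensor of growth arrest, at 2.31 to 4.38 CPM and 13.8 to 19.3 CPM. The cell cycle inhibitor *Cdkn1a* did not pass at ZT22, at 28.5 to 36.1 CPM in WT and 43.6 to 49.8 CPM in FANKO (log2 0.52, FDR = 0.18), although the samples did not overlap. It passed when the 8 samples of ZT22 were fitted alone (log2 0.57, FDR = 0.000279) and with library size scaling (log2 1.08, FDR = 0.00903). Its effect was 2.39 at ZT6 and 1.93 at ZT10. However, no gene of this list had a ZT22 effect called different from the mean of the other times at an FDR below 0.01. The same held against ZT6, ZT10 and ZT18 alone in edgeR, while DESeq2 called 2 genes of this list against ZT6 alone (177 of all genes). At an unadjusted p below 0.05 in edgeR, 6 of the 33 genes differed from the mean of the other times (8.48% of all genes). All 6 had the more negative effect at ZT22.

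Immediate early genes, which follow receptor signals and cell damage within minutes, rose in 22 of 36 cases and fell in none (median log2 difference 1.22). *Fos* was at 0.262 to 0.919 CPM in WT and 10.4 to 12.2 CPM in FANKO (log2 4.22 ± 0.40, FDR = 3.01e-10). *Maff*, a small MAF partner of NRF2, was at 38.2, 25.2, 21.7 and 12.3 CPM in WT and 99.0, 85.1, 55.6 and 91.0 CPM in FANKO (log2 1.79 ± 0.26, FDR = 5.73e-07).

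The glucocorticoid and metallothionein list had 10 of 29 genes lower and 4 higher. *Nr3c1*, the glucocorticoid receptor, was at 173 to 217 CPM in WT and 139 to 152 CPM in FANKO (log2 −0.43 ± 0.09, FDR = 6.49e-05), but on the library size scale its difference was 0.11. *Mt1*, a metal-binding protein, was at 48.9, 47.0, 62.0 and 99.2 CPM in WT and 35.2, 24.9, 22.6 and 32.2 CPM in FANKO, a difference that did not pass with library size scaling (FDR = 0.0624). In the hypoxia list, 11 of 30 genes were lower and 7 higher, and *Hif1a* overlapped between genotypes (log2 −0.22, FDR = 0.0637). *Epas1* (HIF-2α) fell by 1.45 on the log2 scale. *Vegfa*, the vessel growth factor, was at 229 to 258 CPM in WT and 107 to 141 CPM in FANKO (log2 −1.10 ± 0.14).

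The heat shock and chaperone list was near the background at ZT22, with 9 of 46 genes higher (19.6%), 10 lower (21.7%) and a median log2 difference of −0.14. The list is not only cytosolic, as it also holds the mitochondrial chaperonin genes *Hspd1* and *Hspe1*. *Hspd1*, which fell (above), is thus among the lower genes here too. *Hsf1*, the factor that drives heat shock genes, was at 14.9 to 20.1 CPM in WT and 13.5 to 16.8 CPM in FANKO and did not pass (FDR = 0.0692). The constitutive HSP70, *Hspa8*, was at 1051, 869, 761 and 702 CPM in WT and 901, 767, 585 and 701 CPM in FANKO. The groups overlapped (log2 −0.20, FDR = 0.32). *Hspa4l*, an HSP110 co-chaperone, was at 156, 227, 208 and 225 CPM in WT and 136, 103, 100 and 93.9 CPM in FANKO, with no overlap (log2 −0.92 ± 0.13, FDR = 6.13e-07), but with library size scaling the difference was −0.35 and did not pass (FDR = 0.0349). *Hspa1a* and *Hspa1b*, the inducible HSP70 genes, were higher in FANKO (log2 2.23 and 2.21), but they are near-identical copies whose reads cannot be separated with certainty. *Hsph1* was higher by 0.37 on the log2 scale (FDR = 0.00818), a call that was lost without any of WT replicates 1, 2 and 3 and FANKO replicates 1, 2 and 3 (FDR between 0.0105 and 0.0363), with no filter (0.0111), with all 64 samples (0.144) or with the muscle markers as a covariate (0.0113).

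**Figure D2:**
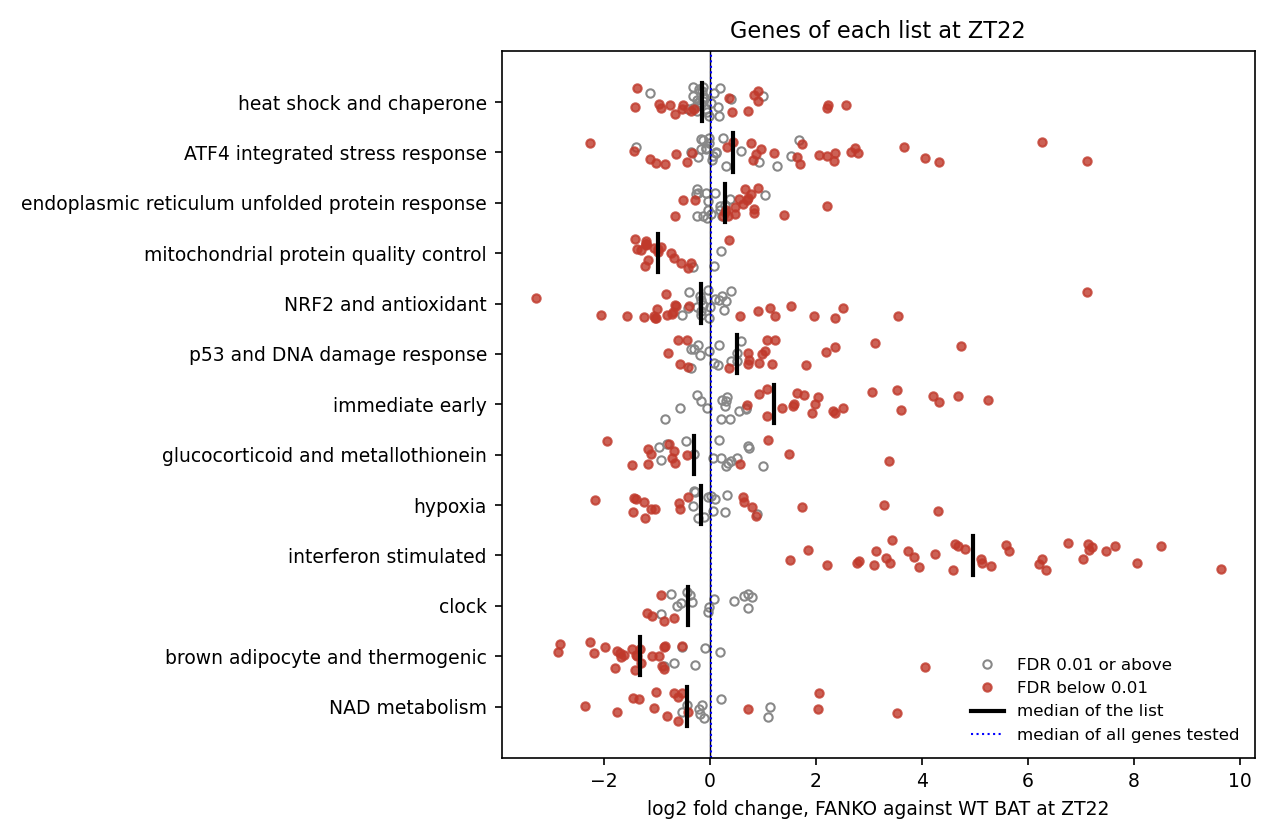
Log2 fold change of FANKO against WT BAT at ZT22 for each tested gene of 13 lists, filled where the FDR was below 0.01. Black bars are list medians and the dotted line is the median of all genes. Interferon genes lie to the right of all other medians (4.97), and mitochondrial protein quality control (−0.98) and thermogenic genes (−1.31) lie to the left.

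**Figure D3:**
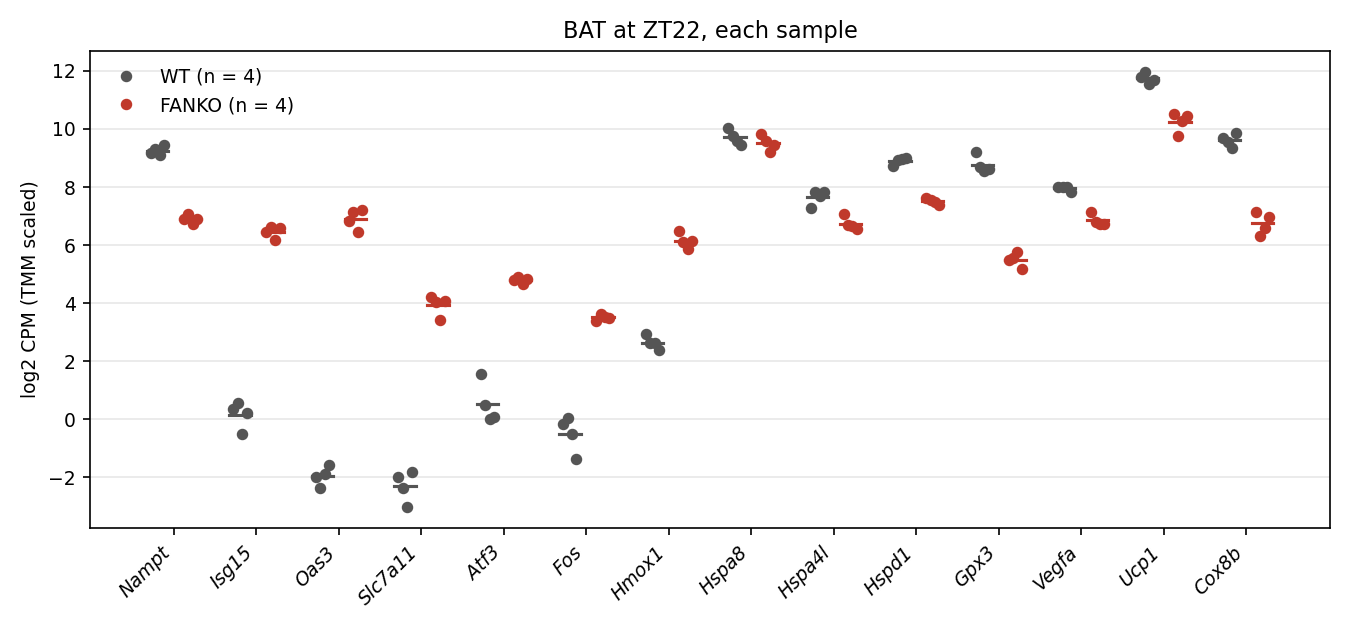
Level of selected genes in each BAT sample at ZT22, in log2 CPM after TMM scaling with a prior count of 2, so that counts of 0 are drawn at a finite level. Gray is WT, red is FANKO, dots are samples and bars are means. *Nampt*, *Hspa4l*, *Hspd1*, *Gpx3*, *Vegfa*, *Ucp1* and *Cox8b* lie lower in FANKO, *Hspa8* overlaps, and the other genes lie higher.

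The test of whether the genotype effect at ZT22 was another one than at the other times set the ZT22 difference against the mean of the differences at ZT6, ZT10 and ZT18. It called 7 of the 18127 genes (0.0386%), 6 with a more negative effect at ZT22 (0.0331%) and 1 with a more positive one (0.00552%). DESeq2 called 58 (0.32%) and limma-voom 8 (0.0441%). None of the 351 stress genes was called by edgeR in the fit reported here or by limma-voom, while edgeR with no filter called 1 and with all 64 samples 2. At an unadjusted p below 0.05 there were 64 of the 351, a larger share than the 1538 of all 18127 genes (8.48%). DESeq2 called 2 of the stress genes, *Maff* and *Mthfd1l*. The same 2 genes passed an FDR of 0.05 in edgeR, at 0.0246 each, among 41 of all genes (0.226%). Leaving out WT replicate 4 raised the number of all genes called to 20 and brought in *Maff* (FDR = 0.00144). Across all genes the ZT22 effect correlated with that at ZT6, ZT10 and ZT18 at 0.93, 0.91 and 0.938 (Pearson's r over genes that share libraries and are not independent), and of the 8625 genes called at ZT22 98.4%, 98.1% and 99.3% had the same sign at those times.

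**Figure D4:**
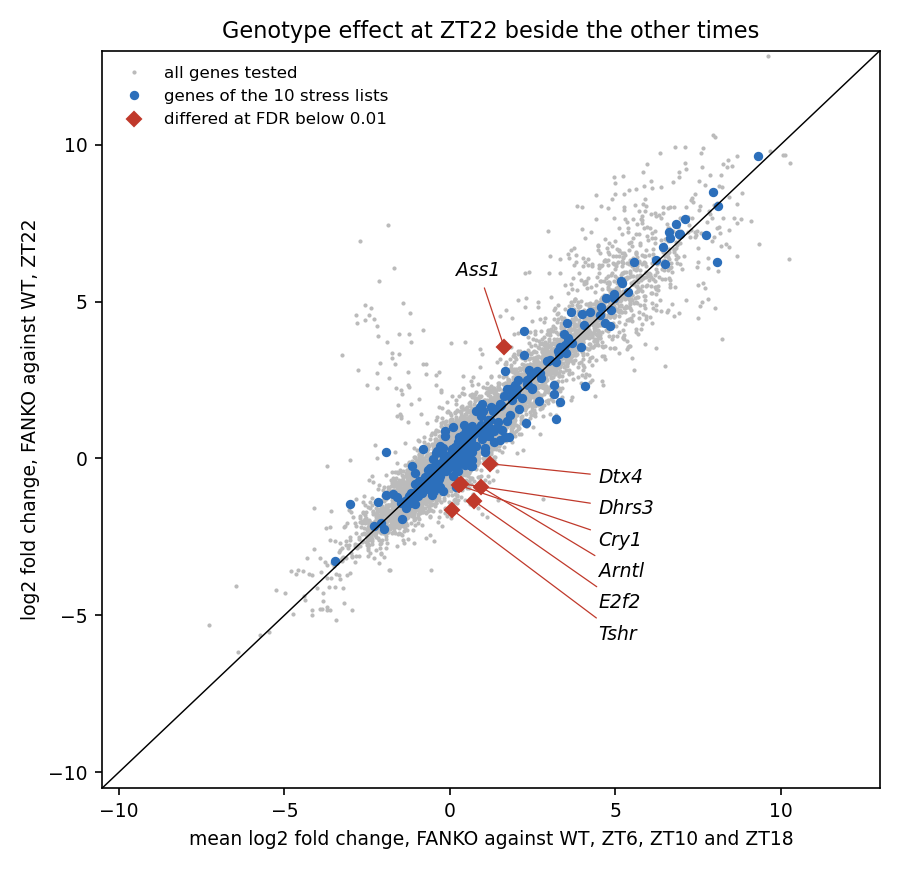
Log2 fold change of FANKO against WT at ZT22 (vertical) against the mean of those at ZT6, ZT10 and ZT18 (horizontal) for all genes (gray), stress list genes (blue) and the 7 genes whose effects differed at an FDR below 0.01 (red). The line marks equal effects. Most genes lie along the line, and *Ass1* lies above it while the other 6 lie below. The 2 axes come from different mice.

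The difference was taken apart by time. Against ZT18 alone, the other dark phase time, edgeR and limma-voom called 0 genes at ZT22 (0.0%) and DESeq2 called 2 (0.011%), with 1276 genes (7.04%) at an unadjusted p below 0.05. Against ZT6 alone edgeR called 59 genes (0.325%), of which 3 were stress genes, and against ZT10 alone 37 (0.204%), of which 4 were stress genes. *Maff* was among both edgeR sets. The number depended on the method. Against ZT6 alone DESeq2 called 177 genes, 11 of them stress genes, and limma-voom 35, with 1 stress gene. Against ZT10 alone DESeq2 called 164, 11 of them stress genes, and limma-voom 27, with 2. The stress genes called were thus called against light phase times, and none was called against ZT18. At an unadjusted p below 0.05 there were 36 of the 351 stress genes against ZT18, a larger share than the 7.04% of all genes.

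For the 2 chaperones among the stress genes that edgeR called, the levels differed more between times in WT than in FANKO. *Hspa8* was in WT at 161 ± 25.9 CPM at ZT6 and 846 ± 154 CPM at ZT22 (mean ± SD, n = 4) and in FANKO at 367 ± 39.9 CPM and 738 ± 132 CPM. Its genotype effect was 1.19 at ZT6 and −0.20 at ZT22, a difference of −1.38 ± 0.24 on the log2 scale (FDR = 0.00275), which did not pass with library size scaling. *Hspa4l* had an effect of 0.07 at ZT10 and of −0.92 at ZT22 (difference −0.99 ± 0.19, FDR = 0.00659). That call was lost without any of 6 samples, WT replicates 2 to 4 and FANKO replicates 2 to 4, with FDR between 0.0102 and 0.026, and with library size scaling (FDR = 0.03). Over the heat shock list, 10 of 46 genes differed from the mean of other times at an unadjusted p below 0.05 (21.7%, beside 8.48% of all genes). Of these, 9 had the more negative effect at ZT22. Such a share was not particular to this list. The glucocorticoid list had 10 of 29 (8 with the more positive effect), immediate early 10 of 36, hypoxia 6 of 30 and ATF4 10 of 51. The p53 list had 6 of 33, the endoplasmic reticulum list 6 of 37, mitochondrial quality control 3 of 22, interferon 4 of 36 and NRF2 3 of 43.

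*Maff* was low in light phase WT BAT, at 3.90 ± 1.39 CPM at ZT6 and 3.10 ± 0.378 CPM at ZT10, and was at 24.4 ± 10.7 CPM at ZT22. In FANKO its means were 60.8, 51.0 and 82.7 CPM at the same times. The effect at ZT22 was smaller by 2.19 ± 0.38 than at ZT6 (FDR = 0.00295) and by 2.24 ± 0.40 than at ZT10 (FDR = 0.0035), on the log2 scale. The first call was lost without WT replicate 1 and the second without WT replicate 2, at an FDR of 0.0106 each, and neither passed with limma-voom (FDR = 0.0162 and 0.0328).

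*Mt2* is a metallothionein that glucocorticoids and metals induce, and its samples overlapped at ZT22. WT was at 20.8 ± 9.83 CPM at ZT6 and 1.68 ± 1.14 CPM at ZT22, while FANKO stood at 2.33 ± 1.00 CPM and 2.08 ± 0.365 CPM. The ZT22 effect minus the ZT6 effect was 3.40 ± 0.64 (FDR = 0.00485), a call lost without WT replicate 1, 2 or 3 or FANKO replicate 1 (FDR between 0.0113 and 0.0184) or with limma-voom (FDR = 0.0247). *Mthfd1l*, a mitochondrial folate enzyme, had a larger rise in FANKO at ZT22 than at ZT10. It was at 0.515, 0.283, 0.295 and 0.367 CPM in the WT samples of ZT22, which together held 17 counts, and at 5.73, 5.89, 6.37 and 6.49 CPM in FANKO. Its effect exceeded that at ZT10 by 2.73 ± 0.39 (FDR = 0.000308).

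**Figure D5:**
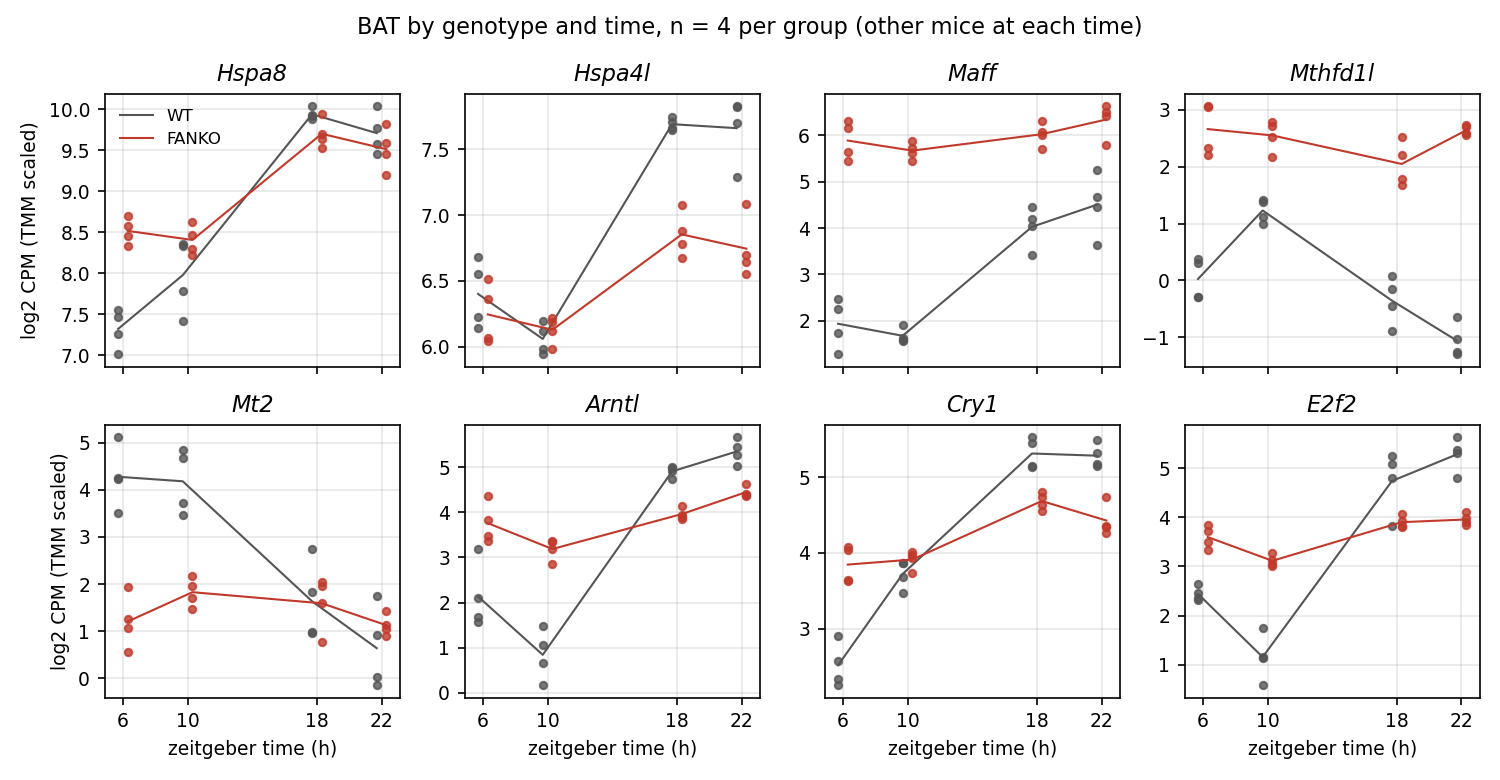
Log2 CPM of 5 stress genes whose ZT22 effect differed from that at ZT6 or ZT10, and of *Arntl*, *Cry1* and *E2f2*, in each BAT sample by zeitgeber time. Gray is WT, red is FANKO, and lines join group means of 4 samples. In WT, *Hspa8*, *Hspa4l*, *Maff*, *Arntl*, *Cry1* and *E2f2* are higher at ZT18 and ZT22 than at ZT6 and ZT10 and *Mt2* is lower, while the FANKO lines of these genes are flatter.

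Within each genotype, ZT22 was also compared with the mean of the other times. In WT BAT 699 genes differed (3.86%), 423 higher (2.33%) and 276 lower (1.52%), and in FANKO BAT 6 differed (0.0331%), with 28 by DESeq2 (0.154%), 9 by limma-voom (0.0496%) and 1102 (6.08%) at an unadjusted p below 0.05. The WT count was 382 without WT replicate 1 and 359 without WT replicate 2. Of the 46 heat shock genes 12 were higher at ZT22 in WT and none was lower, among them *Hspb1* (log2 1.30 ± 0.19), *Hspa8* (1.29 ± 0.13), *Hsph1* (1.04 ± 0.10), *Hspa4l* (0.95 ± 0.10), *Hsp90aa1* (0.88 ± 0.11) and *Stip1* (0.77). In FANKO *Hsph1* alone was called (log2 0.75, FDR = 3.35e-05), and *Hspa8* had 0.65 ± 0.13 (FDR = 0.0382). None of the 36 interferon genes differed from other times in either genotype, with 1 in WT and 10 in FANKO at an unadjusted p below 0.05, beside 20.0% and 6.08% of all genes.

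The 7 genes called in the full comparison of ZT22 with the other times included the clock genes *Arntl* (BMAL1, the activator of the core loop) and *Cry1* (a repressor of it). *Arntl* was at 50.6, 43.3, 38.2 and 32.3 CPM in WT and 20.7, 24.7, 21.1 and 20.6 CPM in FANKO at ZT22 (log2 −0.91 ± 0.22, FDR = 0.00071). Its effect was 1.54 at ZT6, 2.28 at ZT10 and −0.95 at ZT18, so the sign turned between the light and the dark phase, and the ZT22 effect differed from the mean of the others by −1.87 ± 0.27 (FDR = 0.000314). *Cry1* was at 35.4 to 44.9 CPM in WT and 19.2 to 26.6 CPM in FANKO, with a difference from the mean of the other times of −1.14 ± 0.16 (FDR = 0.000242). Against ZT18 alone the *Cry1* difference was −0.22 and did not pass (FDR = 0.849). Of the 20 clock genes 5 were lower at ZT22 (*Per3*, *Hlf*, *Arntl*, *Cry1* and *Clock*) and none was higher. RLE factors and DESeq2 called 2 and 3 clock genes higher, and library size scaling called 5 higher and 2 lower, with *Arntl* (−0.37, FDR = 0.209), *Cry1* (−0.31, FDR = 0.109) and *Clock* (−0.11, FDR = 0.549) no longer called. *Dbp*, a clock output factor, did not pass, at 1.54 to 2.62 CPM in WT and 2.33 to 5.28 CPM in FANKO (log2 0.80, FDR = 0.0363), but passed with DESeq2 (FDR = 0.00819) and library size scaling (FDR = 0.000222).

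The other 5 had no place on the lists. *E2f2*, a cell cycle transcription factor, was at 41.1, 49.4, 39.3 and 27.9 CPM in WT and 17.2, 14.8, 15.7 and 14.1 CPM in FANKO at ZT22, and its effect lay below the mean of the other times by 2.07 ± 0.23 (log2, FDR = 1.37e-05). *Dhrs3*, a retinal reductase, was at 155 to 170 CPM in WT and 86.9 to 100.1 CPM in FANKO (difference from other times −1.14 ± 0.15). *Tshr*, the thyrotropin receptor, was at 28.3 to 50.1 CPM and 10.2 to 17.8 CPM (−1.71 ± 0.24). *Dtx4*, a ubiquitin ligase, overlapped between genotypes at ZT22 (44.8 to 52.3 CPM and 36.7 to 48.8 CPM) and FANKO was above WT in the light phase, with effects of 1.57 at ZT6 and 2.13 at ZT10 (difference from other times −1.38 ± 0.22, FDR = 0.00153, and 0.0122 without FANKO replicate 1). *Ass1*, argininosuccinate synthase of the urea cycle and arginine synthesis, was the gene with a larger rise, at 0.295 to 0.707 CPM in WT and 5.82 to 8.02 CPM in FANKO (1.91 ± 0.32, FDR = 0.00498). Its call was lost without WT replicate 1, 2 or 3 or FANKO replicate 1, 2 or 4 (FDR between 0.011 and 0.025), with library size scaling (0.0211), limma-voom (0.0555), all 64 samples (0.111) or the muscle markers as a covariate (0.0107).

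On the brown adipocyte and thermogenic list, 23 of 30 genes were lower at ZT22 and 1 was higher (median log2 difference −1.31). On the library size scale 15 were lower. The list is not restricted to brown fat genes. It also holds *Lep*, a white adipocyte marker, and *Pparg*, a general adipocyte marker, which were both lower (log2 −1.32 and −0.85). The *Lep* call (FDR = 0.00678) was lost without WT replicate 1, 2 or 3 or any FANKO replicate (FDR between 0.0103 and 0.0315). It was also lost with limma-voom (0.0136), the robust fit (0.0142) and library size scaling (0.0894). Library size scaling lost the *Pparg* call too (log2 −0.29, FDR = 0.141). *Ucp1* was at 3567, 3946, 2968 and 3303 CPM in WT and 1473, 867, 1247 and 1387 CPM in FANKO (log2 −1.47 ± 0.34, FDR = 0.000513), a call that library size scaling lost. *Cox8b*, a heart and brown fat subunit of cytochrome oxidase, was at 654 to 921 CPM in WT and 79.4 to 140 CPM in FANKO (log2 −2.83 ± 0.28). *Ppargc1b*, a coactivator of mitochondrial genes, fell by 2.25 on the log2 scale and did not overlap. *Ebf2*, a determination factor of brown adipocytes, fell by 1.79 and *Cpt1b*, which brings fatty acids into mitochondria, by 1.41. The 1 gene that rose was *Bmp8b*, a secreted activator of thermogenesis, from 0.566 to 1.33 CPM in WT to 12.0 to 16.5 CPM in FANKO (log2 4.07 ± 0.35, FDR = 4.04e-11). It overlaps *Ppie* on the opposite strand, and whether counting used strand is not given in the sources used here. None of the 30 genes had an effect at ZT22 that differed from the mean of other times at an FDR below 0.01, with 7 at an unadjusted p below 0.05 and 0 by DESeq2 and limma-voom. The smallest p values belonged to *Lep* (difference −1.58 ± 0.48), *Gk* (1.42 ± 0.46), *Adrb3* (−0.81), *Slc27a2* (0.86) and *Pparg* (−0.35), at an FDR of 0.169 or more. Of the NAD list they belonged to *Nnmt* (1.23 ± 0.42), *Nmnat3* (−0.33), *Nmnat1* (−0.39), *Sirt5* (−0.36) and *Parp2* (−0.18), at 0.256 or more.

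Among the genes with the highest fitted log2 fold changes at ZT22 were several with no or 1 WT count, whose fitted values depend on the prior count. *Apol9a*, an interferon-inducible apolipoprotein L, had no count in WT and 62.6, 60.0, 28.8 and 76.5 CPM in FANKO, at least 932-fold higher against a floor of 3 counts over the WT group. Its near copy *Apol9b* had 1 WT count and 18.2 to 47.1 CPM in FANKO, and reads of the pair may have been shared. *Slpi*, a secreted protease inhibitor of leukocytes and epithelia, was at least 120-fold higher (3.69 to 11.3 CPM in FANKO) and *Klri2*, a receptor of NK cells, at least 106-fold (5.70 to 7.31 CPM). The immunoglobulin segments *Ighv1-82*, *Igkv5-48*, *Igkv5-43* and *Ighg1* also had no WT count, and single FANKO samples carried much of their level. *Igkv5-48* was at 28.2 CPM in FANKO replicate 3 and 0.382 to 1.23 CPM in the other FANKO samples, and without replicate 3 neither it (FDR = 0.0199) nor *Ighv1-82* (FDR = 0.0189) nor *Ighg1* (FDR = 0.0115) was called. *Ighg1* was also lost without WT replicate 2 (FDR = 0.0124) or 4 (FDR = 0.016), and with limma-voom *Igkv5-48* (FDR = 0.0319), *Ighv1-82* (FDR = 0.0804) and *Ighg1* (FDR = 0.0683) did not pass.

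The genes with the most negative fitted log2 fold changes included several enzymes. *Cyp2b10*, a cytochrome P450 of xenobiotic metabolism, was at 3.54 to 6.65 CPM in WT and at 0.170, 0.0647, 0 and 0 CPM in FANKO (log2 −6.17 ± 1.77, FDR = 0.00362), a call lost without FANKO replicate 3 (FDR = 0.011) or 4 (FDR = 0.0118) and with limma-voom (FDR = 0.0959). *Pon1*, a lactonase carried on lipoproteins, was 42.4-fold lower (7.07 to 11.5 CPM in WT and 0.0961 to 0.382 CPM in FANKO). *Pck1*, which supplies glycerol 3-phosphate for triglyceride synthesis, was at 671, 1057, 978 and 2364 CPM in WT and 61.0, 26.2, 36.7 and 66.6 CPM in FANKO (log2 −4.73 ± 0.54). *Car3* and *Car14*, carbonic anhydrases, were 17.4-fold and 18.6-fold lower between the means, with *Car3* at 2721 to 4104 CPM in WT and 183 to 211 CPM in FANKO. *Fgf14* and *Gldn* were also among the 8 largest decreases, at log2 −4.99 and −4.11.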

How the data were processed

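RNA of 64 adipose samples was extracted with TRI reagent and RNeasy columns and made into TruSeq Stranded Total RNA libraries after Ribo-Zero Gold depletion. The authors read 38 bp from both ends of each fragment, used STAR 2.5.3a on GRCm38.p5 with GENCODE version 15, and deposited whole-number counts per gene from featureCounts 1.5.3, not normalized and not pooled. Strand and multi-mapping options are not given in the sources used here. Groups came from the sample labels, and no column was left without a sample. Symbols came from GENCODE release M21 (52403 of 52636 identifiers).

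Counts of the 32 BAT samples were filtered with filterByExpr (minimum count 10, minimum total 15), scaled by TMM and fitted with edgeR 4.0.16 quasi-likelihood (R 4.3.3) as 8 group means. Benjamini-Hochberg adjustment ran over the 18127 genes tested, and FDR values were set against the authors' FDR of 0.01. SE is the log2 fold change divided by the root of F. Marker sums were compared by exact two-sided permutation. Alternatives were another FDR, each other time alone, a replicate block, leaving out each ZT22 sample, DESeq2 1.42.0, limma-voom 3.58.1, other scalings, filters and samples. Replicates were separate samples by label, and the pipeline was tested on simulated data. ZT22 totals of 8299625 to 22842220 counts limit precision for genes with few counts, and the floor of 3 counts covers counting error only. By rule the text names *Nampt*, stress genes differing from the other times (at most 6 per list), the first gene of each list, the 8 largest increases and decreases at ZT22 and the 8 largest differences from other times in each direction (FDR below 0.01, mean log2 CPM of at least 1, for the ZT22 effect no overlap), and the 5 smallest p of the clock, thermogenic and NAD lists. Stress genes past the FDR against ZT6 or ZT10 alone and the other list members named were chosen after their values were seen. The members and lists were chosen with earlier results of these data known. Upstream sequences are from RefSeq on GRCm38.p6. Some genes that these rules select are not reported here.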

Additional observations from a re-analysis of the deposited data

Results flagged for a closer look

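In 19 of the 220 groups of 4 samples that were examined (genes named in the text and marker sums, WT and FANKO at ZT22), the highest or lowest sample stood apart, with a gap to its neighbor over the range of the group above Dixon's critical value for 4 samples. Chance gives this in about 1 in 20 groups. FANKO replicate 3 was high for *Hsp90b1* (0.863), *Ighv1-82* (0.839) and *Igkv5-48* (0.97), and FANKO replicate 4 for *Igkv5-43* (0.866). FANKO replicate 2 was high for the skeletal muscle sum (0.997), *Arntl* (0.867) and *Cry1* (0.838). FANKO replicate 1 was high for *Clock* (0.934) and *Vegfa* (0.882) and low for *Nr3c1* (0.833). WT replicate 4 was high for *Cat* (0.898) and for the macrophage (0.868), fibroblast and progenitor (0.905) and adipocyte (0.895) sums and low for *Vegfa* (0.86). WT replicate 3 was low for *Gk* (0.87) and the brown adipocyte sum (0.897), and WT replicate 1 was high for *Gpx3* (0.835) and held the 1 count of *Apol9b* (1.0).

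The genotype effect at ZT22 differed from the mean effect of the other times, by the test of that difference, for *E2f2* (log2 −2.074), *Arntl* (−1.87), *Tshr* (−1.71), *Dtx4* (−1.376), *Cry1* (−1.142), *Dhrs3* (−1.135) and *Ass1* (1.905). Against ZT6 alone it differed, among the stress genes reported here, for *Hspa8* (−1.383), *Maff* (−2.187) and *Mt2* (3.397), and against ZT10 alone for *Hspa4l* (−0.9867), *Maff* (−2.243) and *Mthfd1l* (2.725).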

How the results depend on the processing

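Of 226 recomputed values that answer a comparison, 176 kept their direction and side of the threshold, or stayed within 1.5 times the count, and of 2313 for single genes 2161 did. The cause of the others was not tested. Library size alone gave 8365 genes higher and 1203 lower at ZT22, 413 for WT at ZT22 against other times, and FANKO to WT ratios of 1.147 (endothelial, reversed), 0.9573 (white adipocyte), 0.8194 (adipocyte) and 0.6071 (erythroid). Its higher and lower list counts were 24 and 2 for heat shock, 36 and 3 for ATF4, 27 and 0 for the endoplasmic reticulum (lower 1 with RLE), 2 and 11 for mitochondrial quality control, 19 and 6 for NRF2, 9 and 2 for glucocorticoid, 14 and 6 for hypoxia, 5 and 2 for clock (higher 2 with RLE and 3 with DESeq2), and 7 and 6 for NAD, with 0 lower for p53 and 15 lower for thermogenic. It turned the ZT22 effect of *Hspa8* (0.346), *Hsp90aa1* (0.1773), *Stip1* (0.4267), *Hspb1* (0.3184), *Hsf1* (0.3148), *Nr3c1* (0.1109), *Dtx4* (0.393), *Atf4* (0.4755), *Lonp1* (0.2657), *Nfe2l2* (0.5344), *Hif1a* (0.3284), *Gk* (0.02979), *Nnmt* (0.1061), *Nmnat1* (0.05065) and *Parp2* (0.3641), of which *Nr3c1* and *Nmnat1* were called at ZT22 with TMM.

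The 7 genes that differed from the other times became 25 with no filter, 58 with DESeq2, 34 with all 64 samples, 41 at FDR 0.05, and 59, 37 and 0 against ZT6, ZT10 and ZT18 alone, and the stress genes among them (0 in the reported fit) became 1, 2, 2, 2, 3, 4 and 0. FANKO at ZT22 against other times had 28 with DESeq2. Leaving out 1 ZT22 sample gave 7802 to 8341 genes at ZT22, 5 to 20 against other times, of which 0 to 1 stress gene, 359 to 823 for WT and 5 to 6 for FANKO. *Arntl* against ZT18 alone was 0.03881, *Mt2* ranged from −0.06219 (without WT replicate 2) to 0.9541 and *Atf4* from −0.2476 to 0.1513 (without WT replicate 1), with 0.08391 without FANKO replicate 3, when 1 sample was left out. *Nfe2l2* was 0.5344 with library size scaling (FDR = 0.00569) and near 0 in the other fits given here. It was 0.02443 with RLE, 0.008898 with no filter, 0.02436 with DESeq2, 0.005981 with limma-voom and 0.03923 with the 8 samples alone. It was 0.04077, 0.09276, 0.003801 and 0.002422 without WT replicates 1 and 2 and FANKO replicates 1 and 3 (lowest −0.0865).

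The labels do not say that replicate numbers pair samples across genotypes. Deviations of same-numbered samples correlated at 0.093, 0.00469, 0.116 and 0.0774 at ZT22 and at 0.00469 to 0.258 over the 4 times, all 16 above 0 but only 5 above 0.1, and 21 of 32 samples correlated best with their own number, which is a hint from the data and not the design. With the replicate block 8781 genes differed at ZT22, 20 differed from other times, 2 of them stress genes, and *Nfe2l2* was 0.007963. The block brought the ZT22 effects of *Dbp* (0.8715, FDR = 0.00512), *Lonp1* (−0.3021, FDR = 0.00789) and *Fgf21* (FDR = 0.00601) and the differences from other times of *Maff* (FDR = 0.00975) and *Mthfd1l* (FDR = 0.00897) past the FDR, and *Hsph1* (FDR = 0.0132) and *Ass1* (FDR = 0.0191) no longer passed. Genes with few WT counts limit the precision of the largest increases.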
